A study of Mus musculus with 25 samples.

Results

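The genes described are 37 immediate early and heat shock genes, 24 immediate early and 13 heat shock, among the 24537 gene models of a mouse RNA sequencing count table. Each was found by its symbol, the text before the first bar of the table's annotation column, and all 37 were present and passed the filter on low counts. The immediate early members are Fos, Fosb, Fosl2, Jun, Junb, Jund, Egr1, Egr2, Egr3, Ier2, Ier3, Ier5, Atf3, Nr4a1, Nr4a2, Nr4a3, Dusp1, Dusp2, Dusp5, Klf2, Klf6, Btg2, Zfp36 and Nfkbia. The heat shock members are Hspa1a, Hspa1b, Hspa5, Hspa8, Hsp90aa1, Hsph1, Hspd1, Hspe1, Dnaja1, Dnajb1, Hsf1, Chordc1 and Cacybp.

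The study sorted myeloid cells of C57BL6 mice on control chow with 10% fat (CD) or on high fat chow with 45% fat (HFD), and made 25 libraries of 200 cells each. From white adipose tissue, named eWAT in the titles, came pop1 (alpha; Tim4+, MHCII low), pop2 (beta; Tim4+, MHCII high), pop3 (delta; Tim4-CD11c-, MHCII high) and pop4 (gamma; Tim4-CD11c+, MHCII+), each with 2 CD and 2 HFD libraries. From blood came monocytes sorted on CD115 and Ly6C, with 6 CD and 3 HFD libraries. All mice were of the same strain, and the labels name no mutation or drug given to the animals. Adipose tissue was held for 20 min with 4 mg/mL collagenase II and, per the labels, 2 mmol/L flavopiridol, a kinase inhibitor that blocks transcription. For blood the labels describe lysis but no digestion and no flavopiridol, so tissue, gate and handling cannot be told apart in any comparison of adipose cells with monocytes. The adipose control libraries are titled CD-CD7 and CD-CD8 and the adipose HFD libraries HFD2 and HFD3. The control monocytes carry titles of 2 series, CD1 to CD3 and CD-CD6 to CD-CD8. The labels do not say whether libraries of a group came from separate animals, so the p-values measure the spread between these libraries, which may be technical.

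Immediate early genes are switched on within minutes of a stimulus from factors already present in the cell, without new protein synthesis. Most encode transcription factors (the FOS, JUN, EGR, NR4A and KLF families) or proteins that shut the response down again, such as the DUSP phosphatases, Zfp36 and Nfkbia, and their transcripts are short-lived. Heat shock genes encode chaperones that fold or refold proteins, and many are switched on by the transcription factor HSF1 when proteins unfold. Cell isolation from solid tissue is a well known trigger of both programmes.

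The promoters below show what the 2 lists look like where their programmes are read, and are taken from RefSeq on GRCm38.p6, the assembly behind mm10. Promoters of 31 of the 37 members were matched, 21 immediate early and 10 heat shock. Egr1, Egr3, Ier2, Hspa8, Hsp90aa1 and Hsf1 were not matched. The heat shock element was searched as GAANNTTC and, inverted, as TTCNNGAA, which read the same on both strands and can overlap each other. The CArG box, the site bound by serum response factor, was searched by that name. All searches covered the 300 bases from 250 before to 50 after the start. In the lines that follow, capitals mark heat shock elements in either form, and in Egr2 the CArG box. Egr2 is shown for its CArG box, Chordc1 and Cacybp because they differed between the diets, Hspa1a and Hspa1b because their promoters are near copies, and the Hspd1-Hspe1 interval because these 2 chaperone genes start back to back.
Egr2: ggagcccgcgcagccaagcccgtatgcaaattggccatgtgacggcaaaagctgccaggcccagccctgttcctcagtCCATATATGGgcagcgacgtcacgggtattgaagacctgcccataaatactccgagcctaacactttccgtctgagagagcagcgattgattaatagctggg
Chordc1: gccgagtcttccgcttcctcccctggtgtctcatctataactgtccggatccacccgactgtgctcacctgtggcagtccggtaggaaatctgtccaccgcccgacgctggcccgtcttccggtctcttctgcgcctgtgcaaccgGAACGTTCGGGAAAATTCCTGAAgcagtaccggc
Cacybp: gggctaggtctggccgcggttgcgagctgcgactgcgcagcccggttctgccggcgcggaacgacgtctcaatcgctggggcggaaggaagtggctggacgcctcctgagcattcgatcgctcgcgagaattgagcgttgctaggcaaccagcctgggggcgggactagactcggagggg
Hspa1a: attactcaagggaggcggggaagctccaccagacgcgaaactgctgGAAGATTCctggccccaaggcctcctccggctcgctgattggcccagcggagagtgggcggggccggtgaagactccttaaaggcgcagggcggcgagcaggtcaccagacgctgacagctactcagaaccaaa
Hspa1b: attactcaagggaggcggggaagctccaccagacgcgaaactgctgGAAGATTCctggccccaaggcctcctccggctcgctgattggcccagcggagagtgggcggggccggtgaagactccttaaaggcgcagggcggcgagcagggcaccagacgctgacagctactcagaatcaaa
Hspd1-Hspe1 interval: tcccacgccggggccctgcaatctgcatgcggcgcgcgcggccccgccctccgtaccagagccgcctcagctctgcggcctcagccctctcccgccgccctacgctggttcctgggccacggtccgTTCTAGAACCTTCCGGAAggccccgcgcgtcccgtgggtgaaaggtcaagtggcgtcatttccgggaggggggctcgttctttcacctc

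The lines for single genes hold 180 bases, 150 before the start and 30 from it. They lie at chr10:67537719-67537898 (Egr2, plus strand), chr9:18292117-18292296 (Chordc1, plus), chr1:160212863-160213042 (Cacybp, minus), chr17:34972127-34972306 (Hspa1a, minus) and chr17:34959209-34959388 (Hspa1b, minus). The interval of 215 bases between Hspd1 and Hspe1 lies at chr1:55087933-55088147 and is written on the plus strand. Chordc1 held 5 matches to the heat shock forms in its 300 bases, the first starting 4 bases before its start, of which those within the printed line overlap in the run of capitals. Cacybp held 0. Either heat shock form was present in 7 of 10 heat shock promoters, in 2 of 21 immediate early promoters (Fosl2 and Jun) and in 15.1% of all 27025 promoters of the same length. Those 7 are not independent, since Hspd1 and Hspe1 share their interval and the promoters of Hspa1a and Hspa1b are identical at 296 of 300 positions. The CArG box was present in 3 of 21 immediate early promoters (Egr2, Dusp5 and Zfp36), in 0 of 10 heat shock promoters and in 1.54% of all promoters. A match describes letters in this window and is no measure of binding.

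Library totals lay between 3752835 and 9336395 counts, and 3 counts, taken as the limit of detection, corresponded to 0.342 to 0.70 CPM (counts scaled to a common library total by edgeR). All levels are CPM scaled by TMM factors, and a member was called where edgeR's quasi-likelihood test gave a Benjamini-Hochberg adjusted p below 0.05 over all 16961 genes tested. The SE beside a log2 difference is its absolute value divided by the square root of that test's F statistic. It was not estimated apart from the test, and is unreliable where the difference is small. The sort labels for Tim4, CD11c and Ly6C matched their marker genes. The MHCII label, on which pop1 and pop2 differ, and the CD115 label were not checked here. Timd4, which encodes Tim4, lay between 88.9 and 626 CPM in pop1 and pop2 and at 11.9 or less in pop3 and pop4, and Itgax, which encodes CD11c, between 180 and 192 CPM in pop4 and at 43.7 or less in the other adipose libraries. Ly6c2 lay between 434 and 674 CPM in monocytes and at 21.9 or less in adipose libraries. Marker genes of other cells varied with the tissue. The 7 adipocyte markers summed to 245 to 655 CPM in adipose libraries against 6.40 to 27.8 in monocytes, the 7 stromal markers to 48.1 to 1400 against 0.363 to 3.64, and the 5 red cell markers to 0.975 to 634 against 406 to 1290. Adipoq alone lay at 0.397 to 176 CPM in adipose libraries (mean 47.4). On average most of the adipocyte sum thus came from other genes of its list, Fabp4 among them, and it need not be adipocyte RNA. Summed counts of olfactory and vomeronasal receptor genes, which sorted myeloid cells are not known to use, ran from 79.6 to 686 CPM.

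Per kilobase of gene length, the 4 most abundant immediate early members over the 25 libraries were Zfp36, Klf2, Fos and Klf6, with mean levels of 147, 141, 133 and 127 CPM per kb. Zfp36 (tristetraprolin) speeds the decay of AU-rich mRNA, Klf2 and Klf6 are zinc finger transcription factors, and Fos is a subunit of the AP-1 transcription factor. All 4 were present in every library. Zfp36 ranged from 144 to 383 CPM, Klf2 from 124 to 408, Fos from 159 to 546 and Klf6 from 322 to 857. At the other end, Dusp5, Nr4a2, Nr4a3 and Egr3 averaged 0.810, 1.09, 1.19 and 2.79 CPM per kb, and each of them was at 0 in at least 1 library. Among the heat shock members, Hspa5 (BiP, the main chaperone of the endoplasmic reticulum) had the highest mean level at 194 CPM per kb. Cacybp, a protein that binds S100A6 and the ubiquitin ligase component SIAH1, followed at 122, and Chordc1 (morgana, a partner of HSP90) at 107. Hspe1, the co-chaperonin of the mitochondrial HSP60 encoded by Hspd1, averaged 54.0 CPM per kb. The strongly stress-inducible Hspa1a and Hspa1b (HSP70) averaged 7.14 and 14.2 CPM per kb. The narrowest ranges over the 25 libraries were those of Hspe1 (26.8 to 58.0 CPM), Hspa5 (363 to 826) and Hspa8 (29.7 to 69.0), with the highest library 2.16, 2.27 and 2.32 times the lowest.

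The 24 immediate early members summed to 2620 CPM ± 459 (SD, n = 16) in adipose libraries and to 3300 CPM ± 247 (SD, n = 9) in monocytes. With TMM factors the sums ran from 1600 to 3390 CPM in adipose cells and from 3080 to 3840 CPM in blood. Under this scaling pop2 HFD2 at 3390 CPM was the only adipose library within the monocyte range. The factors were 0.893 to 0.955 in monocytes and 0.953 to 1.15 in adipose libraries. By library totals alone the monocyte mean fell to 3040 CPM, so this separation depends on the scaling. By population the means were 2550 ± 296 CPM in pop1, 2750 ± 654 in pop2, 2400 ± 596 in pop3 and 2800 ± 217 in pop4 (SD, n = 4 each), and the libraries of all 4 populations overlapped. The 13 heat shock members summed to 1560 CPM ± 179 (SD, n = 16) in adipose cells and 1530 CPM ± 195 (SD, n = 9) in monocytes, over ranges of 1320 to 1960 and 1200 to 1880 CPM. No test was made on a sum over chosen members. In sorted bulk samples, fewer cells that use a gene and less RNA per cell cannot be told apart.

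**Figure D1:**
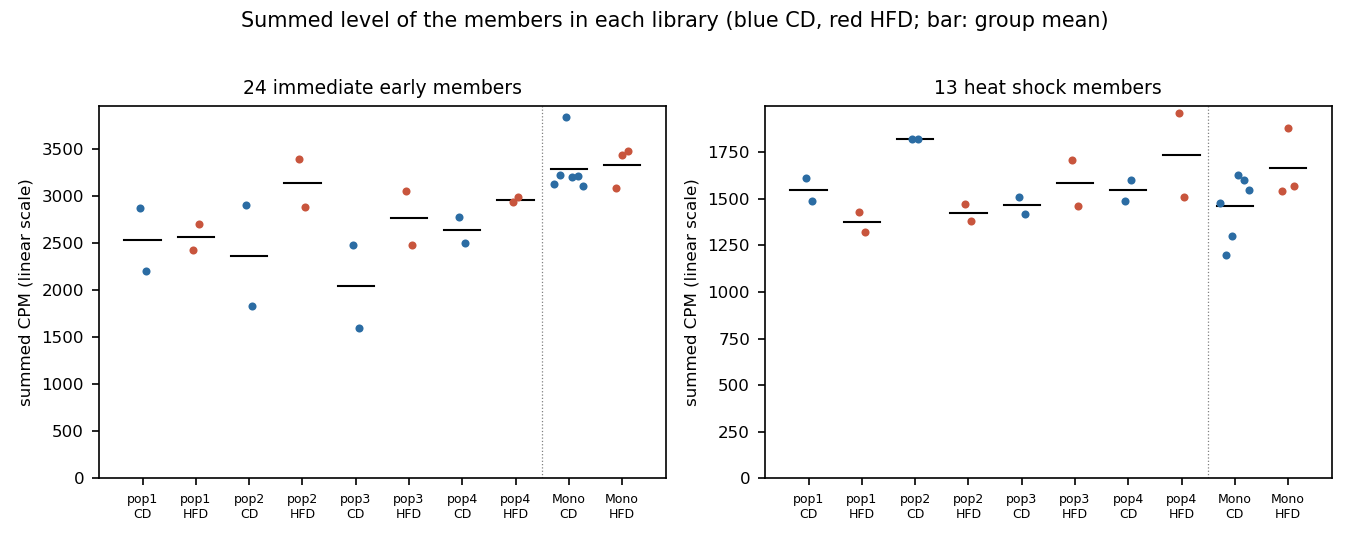
Summed CPM scaled by TMM factors (linear axis from 0) of the 24 immediate early members (left) and the 13 heat shock members (right) in each of the 25 libraries, with blue points for CD, red points for HFD and a bar at each group mean. Immediate early sums run from 1600 to 3840 CPM and heat shock sums from 1200 to 1960 CPM, with 1 adipose library (pop2 HFD2) inside the monocyte range for the immediate early members and wide overlap for the heat shock members.

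Adipose macrophages and monocytes differed in immediate early members in both directions. Egr1, Egr2, Egr3, Jun, Jund and Nr4a3 were higher in adipose cells, and Fosl2, Junb, Nr4a1, Atf3, Ier2, Dusp2, Btg2, Klf6, Zfp36 and Nfkbia were lower. Among the heat shock members Hsp90aa1 was higher, and Hsf1, Chordc1 and Cacybp were lower. In all, 20 of 37 members were called, 7 higher and 13 lower, against 37% of all genes tested (18.5% in each direction). The median log2 difference was -0.21 for the immediate early members, 0.17 for the heat shock members and 0.19 for all genes tested. The scaling moved that median, to 0.35 with DESeq2's size factors and 0.31 with upper-quartile factors, so small differences are relative to it. Btg2, Egr2, Egr3, Fosl2, Jun and Nr4a1 were called under every alternative run and without each of the 25 libraries in turn.

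The 3 EGR zinc finger factors were all higher in adipose cells, and Egr2 and Egr3 had the largest fitted differences of the 37 members. Egr2 (chr10:67537869-67542188, plus strand) had a lowest, median and highest level of 3.49, 79.4 and 148 CPM in adipose libraries against 0, 0.254 and 6.86 CPM in monocytes. Of the 16 adipose libraries only pop2 CD-CD8 fell below the highest monocyte library. The fitted log2 difference was 6.87 ± 1.0 (SE; adjusted p = 1.73e-05), and since 7 of the 9 monocyte libraries held 3 counts or fewer it depends on the prior count. Egr3 (chr14:70077445-70082613, plus) ran at 0.731, 8.71 and 70.2 CPM in adipose cells and at 0, 0.350 and 0.517 CPM in monocytes, with no overlap and a fitted difference of 4.89 ± 0.79 (adjusted p = 5.71e-05). No monocyte library held more than 3 Egr3 counts. Egr1 ran at 3.14, 101 and 158 CPM in adipose cells and at 0.117, 3.75 and 50.5 CPM in monocytes. Its difference was 2.40 ± 0.79 (adjusted p = 0.0222), with overlap, because 3 monocyte libraries lay at 30.8, 40.9 and 50.5 CPM and pop2 CD-CD8 at 3.14. Leaving out HFD monocyte library 1, HFD monocyte library 3 or pop2 CD-CD7 ended the Egr1 call (adjusted p = 0.0632, 0.0759 and 0.0724). In pop2 CD-CD8, the library low in Egr1 and Egr2, the adipocyte marker sum was the highest of all at 655 CPM and the stromal sum was 242 CPM.

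The AP-1 members split by subunit. Jun (chr4:95049036-95052222, minus) ran at 4.96, 55.5 and 119 CPM in adipose libraries and at 1.17, 4.44 and 23.2 CPM in monocytes, a log2 difference of 2.71 ± 0.61 (adjusted p = 0.00173). Jund (chr8:70697739-70700616, plus) ran at 12.3, 52.1 and 102 CPM against 11.4, 20.2 and 43.9 CPM, a difference of 1.18 ± 0.29 (adjusted p = 0.00362). Jund was not called with the CD groups alone (1.01, adjusted p = 0.0727), with the HFD groups alone (1.38, 0.0523) or with the replicate block of title series and number (0.99, 0.142). Fosl2, which encodes FRA2, went the other way. It lay at 24.6, 109 and 210 CPM in adipose cells against 190, 264 and 338 CPM in monocytes (log2 difference -1.53 ± 0.18, adjusted p = 1.2e-06), and of the adipose libraries only 3 of pop4, at 195, 206 and 210 CPM, lay within the monocyte range. Junb ran at 37.2, 97.7 and 214 CPM against 101, 155 and 252 CPM (-0.71 ± 0.19, adjusted p = 0.00592). With the HFD groups alone Junb differed by -0.18 (adjusted p = 0.707), and with the replicate block by -0.43 (0.189). Atf3, a factor that dimerises with JUN proteins, ran at 4.72, 57.1 and 255 CPM against 63.8, 113 and 210 CPM (-0.88 ± 0.33, adjusted p = 0.0431), and 14 of the 25 libraries ended this call when left out (adjusted p up to 0.116). Fos was not called, at 159, 229 and 372 CPM in adipose cells and 210, 312 and 546 CPM in monocytes (-0.29 ± 0.17, adjusted p = 0.174). Fosb was not called either (-0.47 ± 0.46, adjusted p = 0.444). Reads of Jun, Junb and Jund could include antisense transcripts of Junos, Prdx2 and Gm11175, whose exons overlap theirs on the opposite strand.

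**Figure D2:**
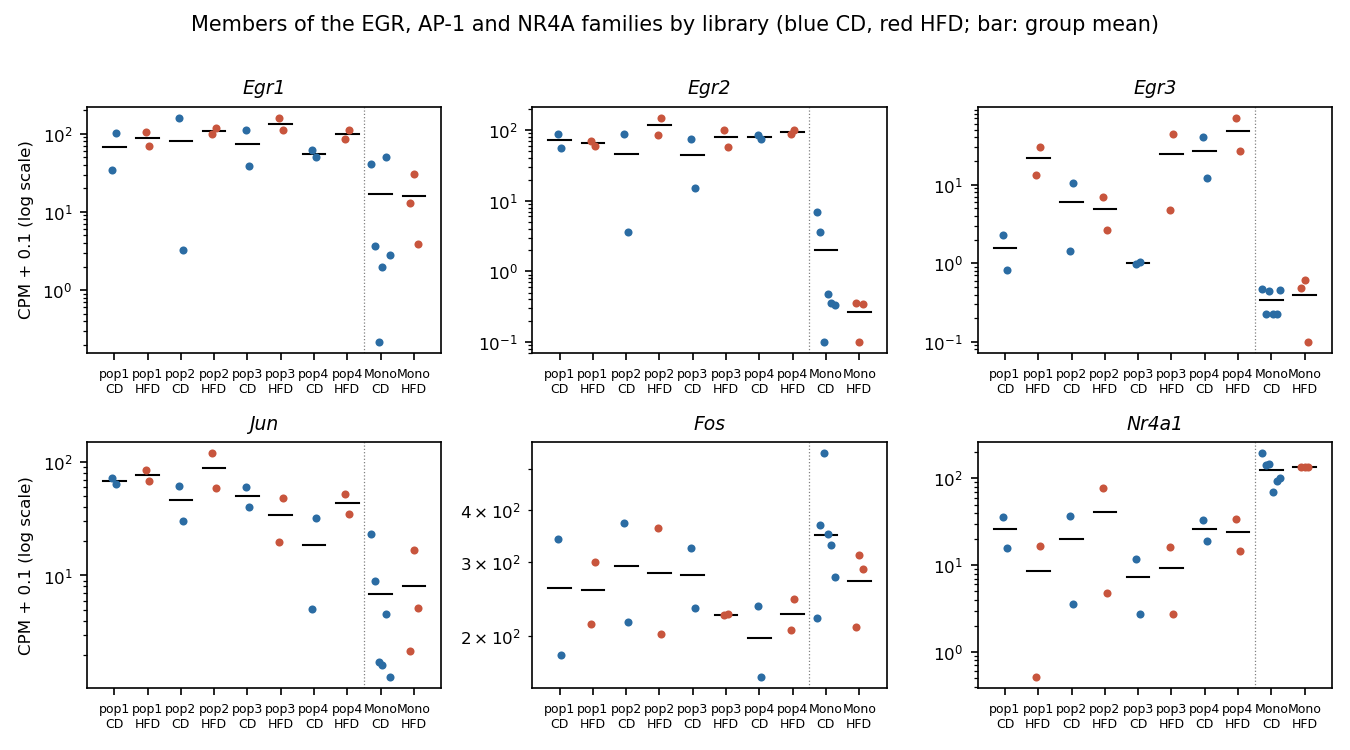
CPM plus 0.1 on log axes for Egr1, Egr2, Egr3, Jun, Fos and Nr4a1 in each library, with blue points for CD, red points for HFD, bars at group means and a dotted line between adipose populations and monocytes. Egr2 and Egr3 sit at 0 to 6.86 and 0 to 0.517 CPM in monocytes and reach 148 and 70.2 CPM in adipose cells, while Nr4a1 sits at 70.0 to 194 CPM in monocytes and at 0.413 to 77.4 CPM in adipose cells.

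The NR4A orphan nuclear receptors differed among themselves. Nr4a1 (chr15:101266846-101274794, plus), which encodes NUR77, ran at 0.413, 15.7 and 77.4 CPM in adipose libraries and at 70.0, 134 and 194 CPM in monocytes (log2 difference -2.91 ± 0.50, adjusted p = 0.000131). A single adipose library, pop2 HFD2 at 77.4 CPM, entered the monocyte range. Nr4a3 was higher in adipose cells (2.48 ± 0.82, adjusted p = 0.0223), but 12 of the 16 adipose libraries lay at 0.441 to 2.97 CPM and only pop4 held libraries above 10 CPM, at 68.2 and 62.8. Without pop4 CD-CD7 the call ended (adjusted p = 0.0625), as it did without HFD monocyte library 2 or 3 (0.0550 and 0.0634). Nr4a2 had a median of 1.12 CPM in adipose cells and 0.172 CPM in monocytes and was not called (log2 difference 0.00, adjusted p = 1). Its SE is left out, being unreliable for so small a difference.

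The remaining immediate early members include the phosphatases and inhibitors that shut the response down and the KLF factors. Dusp2, a nuclear phosphatase of MAP kinases, ran at 0, 0.464 and 33.4 CPM in adipose cells and 2.41, 12.9 and 27.5 CPM in monocytes (-3.35 ± 0.54, adjusted p = 6.28e-05). With the HFD groups alone it was -2.17 (adjusted p = 0.107), and the adipose libraries with the most Dusp2 were HFD libraries, pop3 HFD2 at 33.4 CPM, pop4 HFD2 at 9.98 and pop3 HFD3 at 8.31. Btg2, an antiproliferative factor that recruits the mRNA deadenylase, ran at 50, 143 and 350 CPM against 204, 372 and 419 CPM (-1.18 ± 0.16, adjusted p = 8.32e-06). Ier2, a nuclear protein, differed by -0.98 ± 0.23 (adjusted p = 0.00282), Nfkbia, which encodes the NF-kappaB inhibitor IkBalpha, by -0.64 ± 0.16 (0.00385) and Zfp36 by -0.54 ± 0.12 (0.00122). With the HFD groups alone these 3 were not called, at -0.28 (adjusted p = 0.581), -0.53 (0.106) and -0.43 (0.0899). Klf6 differed by -0.39 ± 0.09 (adjusted p = 0.00294), a call that ended under DESeq2's size factors (-0.24, 0.0545). Dusp1, the best known of these phosphatases, ran at 57.5, 154 and 261 CPM against 124, 166 and 290 CPM (-0.05 ± 0.20, adjusted p = 0.898). Klf2 (-0.12 ± 0.13), Ier5 (-0.13 ± 0.20), Ier3 (1.16 ± 0.66) and Dusp5 (at 6.90 CPM or less in every library) were not called.

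**Figure D3:**
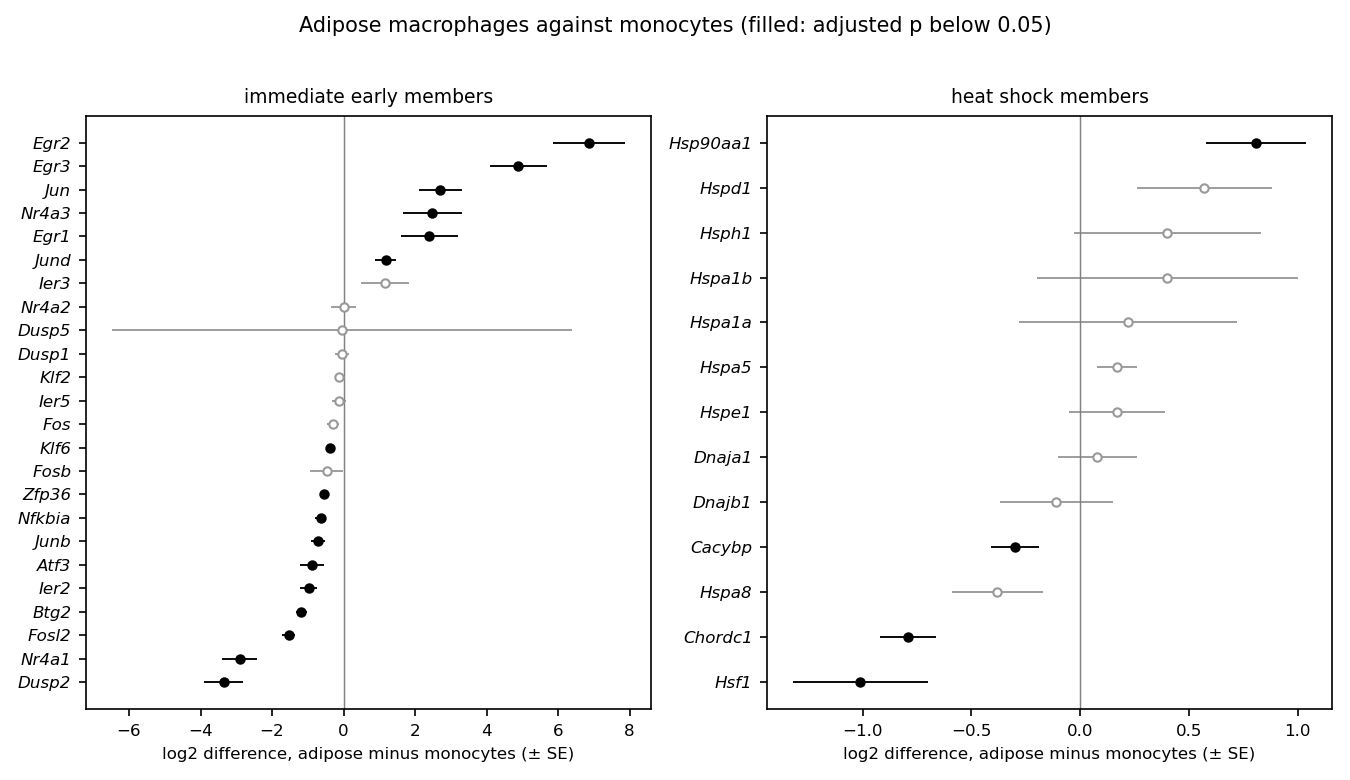
Log2 difference between adipose macrophages and monocytes (mean of 8 adipose groups minus mean of 2 monocyte groups) with its SE for the 24 immediate early members (left) and 13 heat shock members (right, on a narrower axis), filled where the adjusted p is below 0.05. Egr2 is at 6.87 and Dusp2 at -3.35 on the left, while the heat shock members lie between -1.01 and 0.81.

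Of the 13 heat shock members 1 was higher in adipose cells and 3 were lower. Hsp90aa1 (chr12:110691036-110696395, minus), the inducible cytosolic HSP90, ran at 49.3, 69.1 and 92.7 CPM in adipose libraries and at 18.8, 39.8 and 49.2 CPM in monocytes, so the libraries did not overlap (log2 difference 0.81 ± 0.23, adjusted p = 0.0098). With the HFD groups alone this was 0.67 (adjusted p = 0.257), and with the CD-CD series alone 0.61 (0.218). Hsp90aa1 and Egr3 were the only members whose libraries did not overlap with the adipose side higher, and no member did so with it lower, against 1.3% and 2.32% of all genes tested. The 3 lower heat shock members were not called with the CD groups alone. There, Chordc1 differed by -0.25 (adjusted p = 0.218), Hsf1 by -0.08 (0.864) and Cacybp by 0.16 (0.367), against -0.79 ± 0.13 (0.000108), -1.01 ± 0.31 (0.0147) and -0.30 ± 0.11 (0.0359) over both diets. The stress-inducible pair showed no call. Hspa1a ran at 1.40, 18.7 and 57.6 CPM against 5.42, 11.8 and 28.9 CPM (0.22 ± 0.50, adjusted p = 0.79), and Hspa1b at 0.524, 43.5 and 89.4 CPM against 2.28, 38.0 and 45.5 CPM (0.40 ± 0.60, adjusted p = 0.652). Their split is uncertain, since 60.3% and 62.3% of their 50-base windows recur in another gene. The HSP40 co-chaperones Dnaja1 (0.08 ± 0.18) and Dnajb1 (-0.11 ± 0.26), the HSP110 gene Hsph1 (0.40 ± 0.43), the mitochondrial Hspd1 (0.57 ± 0.31) and Hspe1 (0.17 ± 0.22), Hspa5 (0.17 ± 0.09) and the constitutive Hspa8 (-0.38 ± 0.21) were not called.

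Other genes of the pathways showed both directions. Of 21 kinases and factors upstream of immediate early genes, 1 was higher in adipose cells, the SRF co-activator gene Mkl2 (log2 difference 3.02), and 7 were lower, led by its relative Mkl1 (-1.31), Rps6ka1 (-1.0) and Mapkapk2 (-0.85). Of 32 other immediate early and short-lived transcripts tested, 10 were higher, led by Myc (5.23), Cyr61 (3.25) and Maff (3.19), and 6 were lower, led by Gadd45b (-2.01), Sgk1 (-1.73) and Irf1 (-1.59). Of 26 other cytosolic and mitochondrial chaperones, 5 were higher, led by Hspa9 (1.14), and 2 were lower, the chaperonin subunits Cct5 (-0.64) and Cct2 (-0.59). Of 22 endoplasmic reticulum chaperones and stress genes, 5 were higher, led by Creld2 (1.53), and 5 were lower, led by the stress sensor genes Ern1 (-2.84) and Eif2ak3 (-1.03). The adipocyte, stromal and red cell marker sums given above moved with all these differences, and their part in them was not tested.

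Within adipose tissue all cells were digested alike. The fitted mean log2 level of Ier3, Klf2 and Hspa5 was higher in Tim4+ (pop1 and pop2) than in Tim4- populations (pop3 and pop4). That of Fosb, Fosl2, Atf3, Dusp2, Btg2, Chordc1 and Cacybp was lower. These 10 calls, 3 higher and 7 lower, compare with 15.1% of all genes tested (7.26% higher, 7.79% lower). The median log2 difference was 0.01 for immediate early members, -0.16 for heat shock members and 0.14 for all genes. The 8 Tim4+ libraries and the 8 Tim4- libraries overlapped in all 37 members, and stayed apart in 0.342% (higher) and 0.336% (lower) of all genes. Fosb was low in pop2 (0 to 1.17 CPM) and not in pop1 (15.9 to 51.4). It lay at 0.89 to 33.2 CPM in pop3 and 8.47 to 27.6 in pop4. Fosl2 was higher in pop1 (112 to 139 CPM) than in pop3 (24.6 to 105), and highest in pop4 (169 to 210). Atf3 lay at 4.72 to 78.6 CPM in pop3, much as in the Tim4+ libraries (8.17 to 79), and at 224 to 255 in pop4.

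Dusp2 lay at 0 to 0.698 CPM in the Tim4+ libraries, near the limit of detection, and at a lowest, median and highest level of 0.356, 4.41 and 33.4 CPM in the Tim4- libraries (log2 difference -3.69 ± 0.74, adjusted p = 0.00182). Ier3, which encodes a regulator of cell survival, lay at 32.6, 106 and 187 CPM against 0, 26.3 and 79.2 CPM (2.49 ± 0.76, adjusted p = 0.0308). Klf2, a factor that holds macrophages quiescent, lay at 171, 346 and 408 CPM against 124, 191 and 310 CPM (0.71 ± 0.15, adjusted p = 0.00287). Btg2 lay at 50, 119 and 173 CPM against 116, 195 and 350 CPM (-0.82 ± 0.20, adjusted p = 0.00761). Klf2, Btg2, Dusp2 and Chordc1 kept their calls without each of the 16 adipose libraries in turn. The other 6 did not. Fosb (-2.52 ± 0.81, adjusted p = 0.0401) lost its call without any of 12 libraries, Atf3 (-1.26 ± 0.40, 0.0383) without any of 12, Hspa5 (0.36 ± 0.11, 0.0274) without any of 10, Fosl2 (-0.72 ± 0.22, 0.0306) and Ier3 without any of 8, and Cacybp (-0.46 ± 0.13, 0.0178) without pop4 HFD2 (0.0533). For Chordc1 (-0.91 ± 0.16, adjusted p = 0.000588) and Cacybp the difference lay in the HFD libraries. With the CD groups alone they differed by -0.03 (adjusted p = 0.966) and 0.12 (0.804), and without both pop2 HFD libraries by -0.24 (0.38) and -0.23 (0.323).

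With the summed olfactory and vomeronasal counts as a covariate, 0 of the 10 calls remained, while 194 to 686 CPM of such counts in pop1 to pop3 against 79.6 to 190 CPM in pop4 shows how far they run with the populations. With the CD groups alone 0 of the 10 were called either, among them Klf2 (0.66, adjusted p = 0.134), Btg2 (-0.55, 0.24) and Dusp2 (-2.10, 0.349). Of the upstream regulators 0 of 21 were higher and 3 were lower, led by Mkl1 (-1.39) and Mapk9 (-1.36). Of the other short-lived transcripts 4 of 32 were higher, led by Plk3 (2.77), and 4 were lower, led by Phlda1 (-5.26) and Bhlhe40 (-3.37). Of the other chaperones 1 of 26 was higher (Hspa9, 0.74) and 1 lower (Cct5, -0.85), and of the endoplasmic reticulum genes 2 of 22 were higher (Herpud1 0.65, Canx 0.38) and 2 lower (Ddit3 -1.48, Sdf2l1 -0.88).

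Among the Tim4+ cells, the MHCII low pop1 had more Fosb and Fosl2 than the MHCII high pop2, and no other member was called, against 0.466% of all genes tested (0.283% higher, 0.183% lower). Fosb (chr7:19302696-19310045, minus) lay at 27.9, 35.2, 51.4 and 15.9 CPM in pop1 (CD-CD7, CD-CD8, HFD2, HFD3) and at 0, 0, 0.992 and 1.17 CPM in pop2. The 2 CD libraries of pop2 held no Fosb count and the HFD libraries 5 each, so the fitted log2 difference of 7.87 ± 1.40 (adjusted p = 0.00829) depends on the prior count and is no bound. Fosl2 (chr5:32136472-32157839, plus) lay at 132, 112, 139 and 115 CPM in pop1 and 31.8, 28.3, 37.5 and 77.0 CPM in pop2, without overlap (1.58 ± 0.32, adjusted p = 0.0196). Klf6 was the third member without overlap, at 365 to 424 CPM in pop1 and 483 to 624 CPM in pop2, but was not called (-0.45 ± 0.16, adjusted p = 0.28). Libraries stayed apart in 1.29% of all genes with pop1 higher and in 1.4% with it lower. Each call ended when single libraries were left out, for Fosb any of 3 (pop2 CD-CD7, pop2 CD-CD8 or pop2 HFD3, adjusted p = 0.0516 to 0.0666) and for Fosl2 any of 5 (0.0502 to 0.0847). Of the 4 pathway lists, 0 genes were called by edgeR, and 3, 4, 3 and 1 genes had an unadjusted p below 0.05 (upstream regulators, short-lived transcripts, chaperones, endoplasmic reticulum genes). Over all 16961 genes tested the number was 1664.

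Among the Tim4- cells, the CD11c+ pop4 had more Fosl2, Ier2, Atf3 and Nr4a3 than the CD11c- pop3. These 4 calls compare with 6.57% of all genes tested (2.32% in this direction, 4.25% in the other). The median log2 difference of pop3 against pop4 was -0.37 for the immediate early members, -0.26 for the heat shock members and 0.17 for all genes. Atf3 (chr1:191170297-191183333, minus) lay at 255, 235, 247 and 224 CPM in pop4 and 42.0, 4.72, 78.6 and 62.6 CPM in pop3 (-2.56 ± 0.59, adjusted p = 0.0126). The pop4 libraries were above all other adipose libraries for Atf3, the next highest being pop2 HFD2 at 79.0 CPM. Fosl2 lay at 210, 206, 169 and 195 CPM in pop4 and 105, 24.6, 83.9 and 77.1 CPM in pop3 (-1.43 ± 0.31, adjusted p = 0.00923). Ier2 lay at 73.5, 46.7, 162 and 98.7 CPM against 25.1, 13.2, 59.6 and 46.7 CPM (-1.47 ± 0.40, adjusted p = 0.0337). Nr4a3 (chr4:48045305-48086446, plus) was at 68.2, 1.08, 62.8 and 5.68 CPM in pop4 and at 0.712, 2.08, 0.71 and 0.683 CPM in pop3 (-5.10 ± 1.32, adjusted p = 0.025). So pop4 CD-CD8 held no more Nr4a3 than pop3 did, while the other 3 pop4 libraries did.

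**Figure D4:**
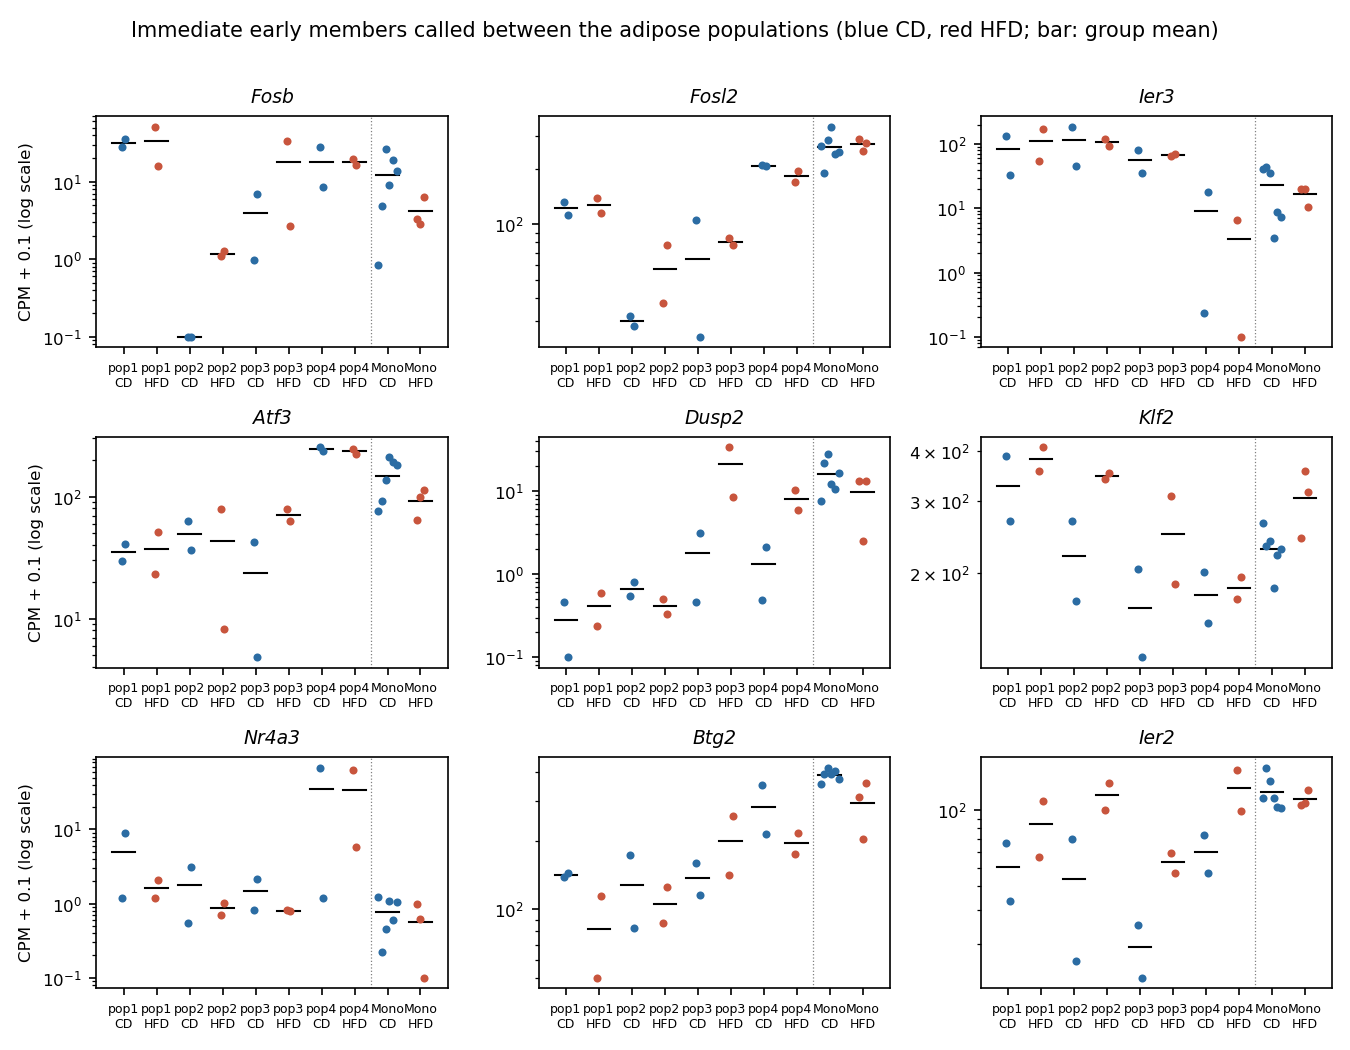
CPM plus 0.1 on log axes for the 9 immediate early members called between adipose populations, in each library, with blue points for CD, red points for HFD, bars at group means and monocytes to the right of the dotted line. Fosb lies at 0 to 1.17 CPM in pop2, Atf3 at 224 to 255 CPM in pop4 and at 79.0 CPM or less in the other adipose populations, and Dusp2 at 0.698 CPM or less in pop1 and pop2.

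Ier3 went the other way, at 79.2, 34.8, 65.7 and 70.1 CPM in pop3 and 0.131, 17.8, 6.53 and 0 CPM in pop4, without overlap and short of the threshold (3.52 ± 1.13, adjusted p = 0.0606). Egr3 was at 40.8, 12, 70.2 and 26.7 CPM in pop4 and at 0.890, 0.945, 4.73 and 43.6 CPM in pop3 (-2.91 ± 0.97, adjusted p = 0.0695). Libraries did not overlap, with pop4 higher, for Fosl2, Atf3, Hspa8, Hspe1 and Hsf1, against 6.04% of all genes, and with pop3 higher for Ier3, against 8.48%. Fosl2 kept its call without each of the 8 libraries in turn. The call ended for Atf3 without pop3 CD-CD8 (adjusted p = 0.0548) or pop3 HFD3 (0.052), for Ier2 without any of 7 libraries (up to 0.137) and for Nr4a3 without any of 6 (up to 0.166). With the olfactory and vomeronasal counts as a covariate, 0 of the 4 calls remained. T cell markers summed to 160 to 282 CPM in pop4 and 40 CPM or less in the other adipose libraries, most of it Cd2 (158 to 257 CPM in pop4 and 36.3 or less in pop1 to pop3). Cd3d lay at 1.83 to 11 CPM in pop4 and 0.945 or less in pop1 to pop3, and Cd3e at 0.392 or less in pop4. The 6 neutrophil markers summed to 39.2 to 264 CPM in pop3 and 6.42 to 18.8 in pop4. Of these, Mmp9 was higher in pop3 (log2 difference 6.35). Retnlg averaged 5.8 CPM in pop3 and 6.1 in pop4, and Camp lay at 0.189 or less in both. The neutrophil sum thus need not be neutrophil RNA. The part of the T cell and neutrophil markers in these differences was not tested. Of the pathway lists, 1 of 21 upstream regulators was higher in pop3 (Elk3, 0.92) and 1 lower (Rps6ka1, -1.61), 4 of 32 short-lived transcripts were higher (led by Zfp36l1, 2.47, and Nfkbiz, 2.13) and 2 lower (Bhlhe40 -2.79, Mcl1 -0.51), 0 of 26 chaperones were higher and 1 lower (Cct5, -1.25), and 0 of 22 endoplasmic reticulum genes were higher and 1 lower (Xbp1, -0.46).

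The diets differed in heat shock members of the Tim4+ cells. In pop2 Chordc1, Cacybp and Hsf1 were lower in the HFD libraries, and in pop1 Cacybp was. All adipose controls are of the CD-CD title series, so diet and title series cannot be told apart in these calls. No immediate early member was called between the diets in any population. The calls were 3 of 37 members in pop2, against 4.19% of all genes tested (0.755% higher, 3.44% lower), and 1 of 37 in pop1, against 0.436% (0.0531% higher, 0.383% lower). In pop3, pop4 and monocytes 0 members were called by edgeR, against 0.0943% (0.0825% higher, 0.0118% lower), 0.0354% and 0.0059% of all genes. There, 7, 0 and 3 members had an unadjusted p below 0.05, against 1873, 1186 and 1169 of all 16961 genes. DESeq2 called 3 members in pop1, 7 in pop2, 3 in pop3 and 1 in monocytes. Its share of all genes is not given here, so these counts do not set the members apart.

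Chordc1 (chr9:18292267-18314000, plus) lay at 274 and 318 CPM in the CD libraries of pop2 and at 44.4 and 23.1 CPM in its HFD libraries, a log2 difference of -3.13 ± 0.35 (adjusted p = 3.26e-05). Those HFD libraries were the lowest of all 25, the next being pop1 HFD2 at 111 CPM. In pop1 Chordc1 lay at 200 and 182 CPM on CD and 111 and 157 CPM on HFD, not called (-0.51 ± 0.32, adjusted p = 0.596). In pop3 it was at 184 and 263 CPM on CD and 176 and 245 on HFD, in pop4 at 204 and 326 on CD and 262 and 252 on HFD, and neither was called (-0.09 ± 0.32 and -0.05 ± 0.32). Its promoter, printed above, is the one with the most matches to the heat shock forms among those shown, overlapping matches counted apart. The promoter of Cacybp, also lower in the HFD libraries of pop2, held 0. Any part of the promoters in these differences was not tested.

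Cacybp (chr1:160202367-160212892, minus) lay at 351 and 316 CPM on CD and 126 and 129 CPM on HFD in pop2 (-1.38 ± 0.26, adjusted p = 0.00287). In pop1 it lay at 353 and 294 CPM on CD and 106 and 94.6 CPM on HFD (-1.69 ± 0.26, adjusted p = 0.00434), a call that ended without pop1 HFD3 (0.0852). In pop3 it lay at 298 and 271 CPM against 220 and 189 CPM, without overlap but not called (-0.48 ± 0.25, adjusted p = 0.506), and in pop4 at 295 and 355 CPM against 300 and 228 CPM (-0.30 ± 0.25, adjusted p = 0.971). Control monocytes held 200, 273 and 243 CPM in CD1 to CD3 and 346, 333 and 289 CPM in CD-CD6 to CD-CD8. Cacybp was thus higher in the CD-CD series, the only one among the adipose controls. HFD monocytes held 279, 319 and 230 CPM, and against all control monocytes the difference was -0.03 ± 0.18 (adjusted p = 1). Some 7.86% of Cacybp's 50-base windows recur in another gene, so reads may be split there.

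Hsf1 (chr15:76477362-76501155, plus), which encodes the master regulator of the heat shock response, lay at 46.4 and 61.5 CPM on CD and 4.36 and 2.57 CPM on HFD in pop2 (-3.95 ± 0.83, adjusted p = 0.0073). Without pop2 HFD3 this call ended (adjusted p = 0.0919). In pop1 it lay at 25.9 and 28.5 CPM against 6.75 and 7.64 CPM, without overlap and not called (-1.92 ± 0.76, adjusted p = 0.33). In pop3 it was at 16.4 and 14.9 CPM on CD and 4.61 and 21.1 CPM on HFD (-0.28 ± 0.73, adjusted p = 0.925), and in pop4 at 25.5 and 21.9 CPM on CD and 26.2 and 48.4 CPM on HFD (0.66 ± 0.73, adjusted p = 1).

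**Figure D5:**
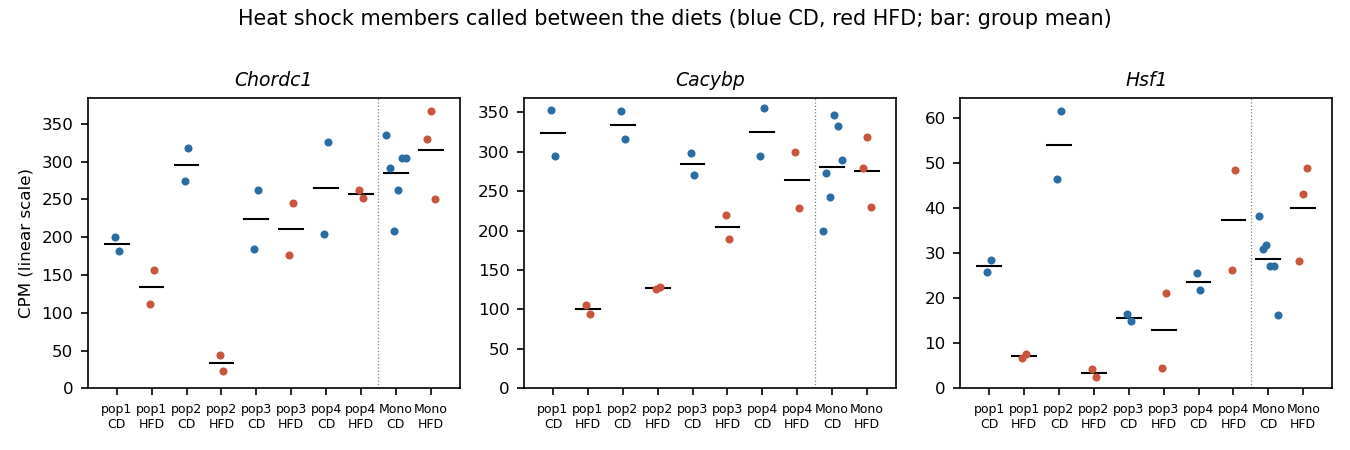
CPM on linear axes from 0 for Chordc1, Cacybp and Hsf1 in each library, with blue points for CD, red points for HFD and bars at group means. In pop2 the HFD libraries lie at 44.4 and 23.1 CPM for Chordc1, 126 and 129 for Cacybp and 4.36 and 2.57 for Hsf1, below the CD libraries in each case.

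The difference between diet effects was tested as the mean effect in pop1 and pop2 minus that in pop3 and pop4. Chordc1 (-1.75 ± 0.32, adjusted p = 0.0151) and Cacybp (-1.15 ± 0.25, 0.0396) were called and Hsf1 was not (-3.12 ± 0.75, 0.0592), against 0.637% of all genes (0.0649% higher, 0.572% lower). The Chordc1 call ended without pop4 CD-CD7 (adjusted p = 0.0635) and the Cacybp call without any of 11 of the 16 adipose libraries (up to 0.137). With DESeq2's size factors and upper-quartile factors the all-gene median of this contrast moved by 0.15 and 0.18, and both also ended the Cacybp call (0.103 and 0.116).

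The heat-inducible members were not called in pop2, where Hsf1 was lower on the high fat diet. There, Hspa1a was at 9.93 and 7.68 CPM on CD and 20.6 and 1.40 on HFD (0.33 ± 1.15), Hspa1b at 89.4 and 0.524 against 3.17 and 61.6 (-0.47 ± 1.36), Dnajb1 at 92.0 and 56.0 against 87.7 and 46.0 (-0.15 ± 0.60) and Hsph1 at 29.8 and 94.3 against 174 and 48.6 (0.84 ± 0.98). The replicates of these inducible genes lay as far apart as the diets. The constitutive Hspa8 (0.36 ± 0.49), the inducible Hsp90aa1 (-0.16 ± 0.51) and Hspa5 (0.22 ± 0.21) were not called in pop2. Nor was any of the 26 other chaperones or the 22 endoplasmic reticulum genes there, of which 2 and 6 had an unadjusted p below 0.05. In the 4 pathway lists, edgeR called 0 genes between the diets in any population. Their genes at an unadjusted p below 0.05 numbered 13 in pop1, 18 in pop2, 13 in pop3, 4 in pop4 and 4 in monocytes. Over all 16961 genes tested the numbers were 1887, 2878, 1873, 1186 and 1169, so the counts in the lists do not set them apart.

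Among the immediate early members, Junb and Jund had higher HFD than CD levels without overlap in pop1, pop2 and pop3, and not in pop4, and neither was called. Junb lay at 97.2 and 64.3 CPM on CD and 122 and 102 on HFD in pop1 (0.48 ± 0.45, adjusted p = 0.773), at 91.8 and 42.6 against 214 and 175 in pop2 (1.53 ± 0.46, 0.0624) and at 42.9 and 37.2 against 166 and 98.2 in pop3 (1.72 ± 0.46, 0.145). Jund lay at 33.7 and 40.5 CPM against 81.3 and 72.8 in pop1 (1.05 ± 0.63, 0.584), at 34.4 and 36.1 against 102 and 93.4 in pop2 (1.47 ± 0.64, 0.239) and at 43.1 and 12.3 against 79.0 and 65.5 in pop3 (1.38 ± 0.64, 0.434). Such separation of 2 libraries from 2 occurred in either direction in 41.9%, 47.3% and 40.6% of all genes in pop1, pop2 and pop3, so it sets no member apart. With the counts of the 4 populations summed for each title number, which leaves 2 sums per diet, edgeR called 0 members and 0 of 17806 genes (0%). Of the members, 8 had an unadjusted p below 0.05, against 2159 of all 17806 genes. They were Cacybp (-0.75), Klf6 (0.35), Junb (0.88), Dusp2 (3.31), Jund (0.87), Ier2 (1.10), Hspa5 (0.31) and Dusp1 (-0.53). DESeq2 called 1 member, and its share of all genes is not given here. The median over the immediate early members was 0.39 and over all genes -0.01, with 19 of 24 members above 0.

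Other measures moved with diet in pop1, pop2 and pop3. The 10 macrophage markers summed to 6370 and 5830 CPM in the CD libraries of pop2 and 4100 and 3930 CPM in its HFD libraries, and to 5750 and 5370 against 4270 and 4560 CPM in pop1. The 6 neutrophil markers summed to 333 and 205 CPM against 45.0 and 161 CPM in pop2 and to 240 and 172 against 68.6 and 126 CPM in pop1, and most of it was Mmp9 (40.1 to 324 CPM in pop2, 61.6 to 231 in pop1). Retnlg lay at 3.57 to 8.55 CPM in adipose libraries and Camp at 0.325 or less. The olfactory and vomeronasal sum was 388 and 398 CPM against 490 and 686 CPM in pop2 but 644 and 607 against 245 and 267 CPM in pop1. In pop3 the macrophage sum was 4640 and 4040 CPM on CD against 3160 and 3800 on HFD, the neutrophil sum 264 and 152 against 39.2 and 102, and the olfactory and vomeronasal sum 422 and 659 against 328 and 194. The 5 platelet markers summed to 798 to 986 CPM in the CD libraries and 553 to 696 CPM in the HFD libraries of pop1, pop2 and pop3. Between adipose cells and monocytes the markers of this list split. Pf4 was higher in adipose cells (log2 difference 2.63), and Ppbp (-4.45), Gp9 (-6.95) and Gp1bb (-4.2) were lower, so the sum need not be platelet RNA. The part of the markers was not tested. With the olfactory and vomeronasal counts as a covariate all 4 diet calls remained. All adipose control libraries are of the CD-CD title series, so diet and title series cannot be told apart in adipose tissue.

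Monocytes were the only cells in which the 2 control title series could be compared. In 12 members the libraries titled CD and CD-CD did not overlap, 7 of 24 immediate early and 5 of 13 heat shock, against 16.2% of the 10862 genes tested. Ier3, Nr4a1, Junb, Ier2, Ier5, Klf2 and Hsf1 were higher in the CD series, and Atf3, Hspa8, Hsp90aa1, Dnaja1 and Cacybp in the CD-CD series. Ier3 lay at 40.9, 44.0 and 35.2 CPM in CD1 to CD3 and at 3.39, 8.62 and 7.17 CPM in CD-CD6 to CD-CD8 (log2 difference 2.61 ± 0.54, adjusted p = 0.405). Nr4a1 lay at 194, 143 and 145 CPM against 70.0, 92.2 and 101 CPM (0.84 ± 0.23, adjusted p = 0.444). Atf3 lay at 75.7, 92.4 and 138 CPM against 210, 193 and 182 CPM (-0.98 ± 0.23, adjusted p = 0.436). Hsp90aa1 lay at 24.1, 18.8 and 29.6 CPM against 47.5, 39.8 and 49.2 CPM (-0.95 ± 0.37, adjusted p = 0.568). By edgeR 0 of the 32 members tested were called (0% of genes). An unadjusted p below 0.05 was found for 7 members, against 887 of 10862 genes. DESeq2 called 5 members, and its share of all genes is not given here. T cell markers were at 1.62 to 49.7 CPM in the CD series and 69.3 to 236 CPM in the CD-CD series, and their part was not tested.

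In each of the 5 populations the control library titled CD-CD8 had a lower immediate early sum than the one titled CD-CD7. The sums were 2200 against 2870 CPM in pop1, 1830 against 2900 in pop2, 1600 against 2480 in pop3, 2500 against 2770 in pop4 and 3100 against 3210 in monocytes. Fos, Junb, Egr2, Ier2 and Ier5 (5 of 24 immediate early members) and Hspa5 and Dnajb1 (2 of 13 heat shock members) were lower in CD-CD8 in all 5 populations, against 3.25% of all genes tested. Within the 4 adipose populations it was 8 of 24 and 2 of 13, against 6.65%. This pattern was chosen after its values were seen. The labels do not say whether a shared title number means a shared mouse or day. The HFD libraries showed no such order for the immediate early members. Of these 0 of 24 were lower in HFD3 than in HFD2 in all 5 populations, against 2.7% of all genes. Of the 13 heat shock members Hspa1a, Dnaja1 and Dnajb1 were. The heat shock sum was also lower in HFD3 in all 5 populations. It was 1320 against 1430 CPM in pop1, 1380 against 1470 in pop2 and 1460 against 1710 in pop3. In pop4 it was 1510 against 1960 CPM and in monocytes 1570 against 1880. This order, too, was chosen after its values were seen.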

How the data were processed

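The deposited table holds raw read counts per RefSeq gene model, which the authors made by aligning reads with STAR 2.5.3a to mm10 and counting with HOMER, per the submitters' processing notes. The annotation version, strand, counting options and the handling of duplicates and multiply matching reads are not given in the sources used here, so near copies (Hspa1a and Hspa1b, Hspa8, Hsp90aa1, Hspd1, Hspe1, Dnaja1) and genes with exons overlapping on the opposite strand are uncertain. Libraries were grouped by population and diet from their titles into 10 groups. The 26 pairs of libraries within groups all differed beyond sampling noise (chi-square per gene 44.3 or more). Counts were fitted in R 4.3.3 with edgeR 4.0.16 (TMM factors, filterByExpr, robust glmQLFit, glmQLFTest, Benjamini-Hochberg adjustment over 16961 genes), in 1 fit of all 25 libraries with 15 residual degrees of freedom, and a call is an adjusted p below 0.05. The common biological coefficient of variation was 0.749. The scripts were tested on simulated data. DESeq2 1.42.0, other scalings, no filter, a covariate, subsets and leaving out each library were alternatives. Same-numbered libraries were checked for shared deviations from group means. Over 43 pairs r lay between -0.04 and 0.07 for all genes and between -0.53 and 0.7 for the members alone. In groups of 2 libraries the deviations mirror each other, so many of these pairs repeat the same r. The check therefore cannot decide whether a number means a shared mouse or day. In the main fit, numbers were not taken to pair samples. Members described in full are those called in a comparison plus the 4 most abundant per kilobase of each list. Of each pathway list at most 3 genes in a direction, by size of the log2 difference, are named. Members and lists were chosen with earlier results of these data known. Promoter sequences are RefSeq's on GRCm38.p6.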

Additional observations from a re-analysis of the deposited data

Results flagged for a closer look

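In the 6 control monocyte libraries, 4 of 39 values tested (37 members and 2 sums) had a single library far from the others. The cut-off on the gap is one that normal data pass about 1 time in 20. CPM can be skewed and the sums contain the members, so the number due to chance is not known. The library CD3 had the highest immediate early sum, 3840 CPM against 3100 to 3220 CPM in the other 5. It also stood apart for Junb (252 CPM against 111 to 159) and for Nr4a2 (17.5 CPM against 0 to 0.502). The library CD1 stood apart for Jun, at 23.2 CPM against 1.17 to 8.82.

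The effect of diet differed between the Tim4+ and the Tim4- populations for Chordc1 (log2 difference of effects -1.75, adjusted p = 0.0151 by edgeR) and for Cacybp (-1.15, adjusted p = 0.0396). Hsf1 was lower in both HFD libraries than in the CD libraries in pop1 (not called) and in pop2, and higher in both in pop4 (0.66, adjusted p = 1). The test of the difference between Tim4+ and Tim4- cells for Hsf1 gave -3.12 and missed the threshold (adjusted p = 0.0592), and pop2 against pop4 alone was not tested.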

How the results depend on the processing

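Of 368 recomputed values of called members under other settings, 245 kept their direction and call, 120 lost the call and 3 reversed. Of 756 values with 1 library left out, 642 kept and 114 lost the call. Such fits can leave a group with 1 library, which is then assumed to vary like the others. The reversals were Cacybp in adipose cells against monocytes with the CD groups alone (0.16), Hsf1 there with the CD-CD series alone (0.21) and Cacybp in Tim4+ against Tim4- cells with the CD groups alone (0.12). These subsets hold fewer samples. For the values below the cause was not tested.

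Members called in adipose cells against monocytes numbered 20, and 8 with the CD-CD series alone, 9 with the HFD groups alone, 9 with the covariate and 12 with the replicate block (title series and number). Tim4+ against Tim4- gave 10, and 0 with CD alone, 4 with HFD alone, 0 with the covariate, 6 with the block and 4 without both pop2 HFD libraries, an alternative chosen after seeing the data. For pop1 against pop2 the count fell from 2 to 0 with CD alone, HFD alone and the block. For pop3 against pop4 it went from 4 to 1 with CD alone, 0 with HFD alone, 0 with the covariate, 2 with the block and 7 by DESeq2. The block entered no adipose diet comparison, since the diets share no number. In monocytes it changed no diet call. For the difference of diet effects the count fell from 2 to 1 with DESeq2's size factors, upper-quartile factors and the covariate. All genes called in that contrast fell from 108 to 58 with DESeq2's size factors and to 47 with upper-quartile factors. DESeq2's own test called 3 in pop1, 7 in pop2, 3 in pop3, 1 in monocytes, 1 in the summed counts and 5 between the title series. For the subsets, the covariate, the block and DESeq2's own test the shares of all genes called are not given here. Those counts therefore do not set the members apart from other genes. Leaving out 1 library gave 17 to 20 members for adipose against monocytes, 5 to 8 for Tim4+ against Tim4-, 0 to 2 for pop1 against pop2, 1 to 4 for pop3 against pop4, 0 to 1 for diet in pop1, 2 to 4 in pop2, 0 to 3 for the difference of effects, and 0 for diet in pop3, pop4, monocytes and the sums and for the title series. Chordc1 and Cacybp kept their pop2 diet calls in every fit run.

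With DESeq2's size factors, 59.6% of the genes called were higher in adipose cells against 50% with TMM, 60.2% against 48.2% in Tim4+ against Tim4-, and 74.7% against 64.6% in pop3 against pop4. Without Klf6 the immediate early sums were 2130 and 2690 CPM (adipose, monocytes), and without Hspa5 the heat shock sums 1030 and 1070 CPM. By library totals alone the monocyte immediate early sum was 3040 CPM. On simulated data with a log2 change of 2 the fit recovered 71% of changed genes for adipose against monocytes but 0% for diet in pop1 and 15% in monocytes. Of changes of 4 it recovered 10% and 90%. False calls made up 2.8% to 9.1% of calls over the comparisons simulated. All genes were simulated with the same dispersion. For genes that vary as much as that, an absent call says little in pop1, and less variable members were not simulated. Diet in pop2, pop3 and pop4 was not simulated either.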
